A study of Mus musculus with 2 samples.

Results

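Htr5b, Ano2 and Zg16 are 3 of the 25556 genes counted in single nuclei of the mouse brainstem, and they were followed across cell clusters and genotypes, inside and outside the neuronal cluster neuron.6. They were chosen on measured values: each had far fewer unique molecular identifiers (UMIs) in the HET library than in the WT library, and they had been linked to the inferior olive. That difference and the cluster pattern are therefore given as description, with no test. The WT library came from 1 wild-type mouse and the HET library from 1 Scn1a A1783V/WT mouse. The HET mouse carries a loss-of-function missense knock-in of the sodium channel gene Scn1a and models Dravet syndrome. The knock-in came from crossing a floxed-stop Scn1a male with a Sox2-Cre female, whose Cre is active in the early embryo and not in 1 cell type alone. Both mice were untreated females on a C57BL/6J background at postnatal day 41. With 1 library per genotype no difference between genotypes has a replicate check, and all intervals below are 95% exact intervals that cover counting error only.

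The inferior olive is the nucleus of the medulla that sends climbing fibres to the Purkinje cells of the cerebellum. Its neurons are glutamatergic, are coupled to each other by gap junctions, and fire in a slow rhythm that rests on T-type calcium channels, calcium-activated conductances and the hyperpolarization-activated current. Htr5b encodes the serotonin receptor 5B, which is known for its expression in the olive. Ano2 (TMEM16B) encodes a calcium-activated chloride channel of the anoctamin family. Zg16 encodes zymogen granule protein 16, a secreted lectin best known from the pancreas and the gut, with no established role in the olive.

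On GRCm38 in GENCODE vM21, Htr5b (ENSMUSG00000050534) lies on the minus strand of chromosome 1 from 121509842 to 121528465 and has 2 exons. Ano2 (ENSMUSG00000038115) lies on the plus strand of chromosome 6 from 125690419 to 126040126, with up to 26 exons in a transcript. Zg16 (ENSMUSG00000049350) lies on the minus strand of chromosome 7 from 127050156 to 127087328, whereas RefSeq ends it at 127052675. The rest of the span belongs only to longer GENCODE transcripts. Each gene overlaps a pseudogene or a non-coding gene of the same annotation, and none of those 5 overlapping genes has a row of its own in the counts. The protein sequences and the promoters of Htr5b and Zg16 were not used here. For Ano2, the 250 bases before its annotated start (RefSeq, GRCm38.p6, plus strand, chr6:125690169-125690418) are shown because Ano2 is the member that follows neuron.6 most closely. Capitals mark each TAAT or its reverse complement ATTA, the core that homeodomain proteins such as the olive's POU factor Pou4f1 can contact.

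Ano2: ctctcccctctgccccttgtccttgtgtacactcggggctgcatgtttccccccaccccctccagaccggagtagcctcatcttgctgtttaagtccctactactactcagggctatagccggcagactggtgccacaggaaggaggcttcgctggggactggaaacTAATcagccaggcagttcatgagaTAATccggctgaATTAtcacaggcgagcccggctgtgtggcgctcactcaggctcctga

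The stretch held TAAT or ATTA 3 times, and the other 2 annotated Ano2 stretches held it once each. At least 1 match on either strand was found in 54.9% of the 32851 RefSeq promoter stretches of this length. This core was picked after the sequence had been seen. The TATA box TATAAA (12.4% of stretches), the octamer ATGCAAAT (1.60%), the forkhead motif TGTTTAC (3.17%) and the cAMP response element TGACGTCA (1.55%) had no match on either strand in any of the 3 annotated Ano2 stretches.

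The WT library held 70301390 UMIs in 9259 nuclei and the HET library 66176778 UMIs in 9022 nuclei, in 16 deposited clusters, and 23 nuclear barcodes occurred in both. The libraries differed in tissue content. The 3 granule cell markers were each at least 2-fold higher in HET (summed 3.23 against 22.4 counts per 1000000 UMIs, CPM). The 2 choroid plexus markers (396 against 42.8 CPM) and the 2 endothelial markers (57.3 against 23.5 CPM) were each at least 2-fold lower. So were the 7 caudal Hox genes (44.8 against 17.4 CPM), against 4.94% of all genes tested. Of the 3 oligodendrocyte and the 2 Purkinje cell markers, 1 each was at least 2-fold higher. No listed marker of neurons, inhibitory neurons, astrocytes or microglia was past 2-fold. The part of these shifts in the results below was not tested. Scn1a itself stood at 380 CPM (WT) and 420 CPM (HET). The counts do not separate its alleles, so this is no check of the genotype labels. Fewer nuclei of a type among those captured and fewer cells in the tissue cannot be told apart.

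Over all nuclei, Ano2 had 1038 UMIs in WT and 77 in HET, or 14.8 and 1.16 CPM. Zg16 had 218 and 11 UMIs (3.10 and 0.166 CPM), and Htr5b had 217 and 25 (3.09 and 0.378 CPM). The log2 ratio of HET to WT was -3.67 (interval -4.02 to -3.33) for Ano2, -4.22 (-5.25 to -3.35) for Zg16 and -3.03 (-3.69 to -2.43) for Htr5b. All 3 were thus at least 8-fold lower in HET, as were 0.145% of the 21997 genes with at least 20 UMIs, while 4.94% of these genes were at least 2-fold lower. Both shares come from the contrast that chose the genes. No member was absent from HET. The median log2 ratio of the 16347 genes with at least 200 UMIs was -0.10.

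The 3 genes reached these similar ratios from different nuclei. In WT, 949 of the 1038 Ano2 UMIs (91.4%) lay in neuron.6, a cluster that held 2.38% of all WT UMIs. No other gene with at least 200 WT UMIs had a higher share of them there, among 14544 such genes. Htr5b had 130 of its 217 UMIs (59.9%) in neuron.6, and 5 genes had a higher share. Zg16 had 35 of its 218 (16.1%) there, and 58 genes had a higher share. Outside neuron.6 the WT UMIs were 89 (Ano2), 87 (Htr5b) and 183 (Zg16). Each gene thus passed the minimum of 200 only with its neuron.6 UMIs, and these ranks are description and no test. Neuron.6 thus held most of the WT signal of Ano2 and Htr5b and a minor part of that of Zg16.

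**Figure D1:**
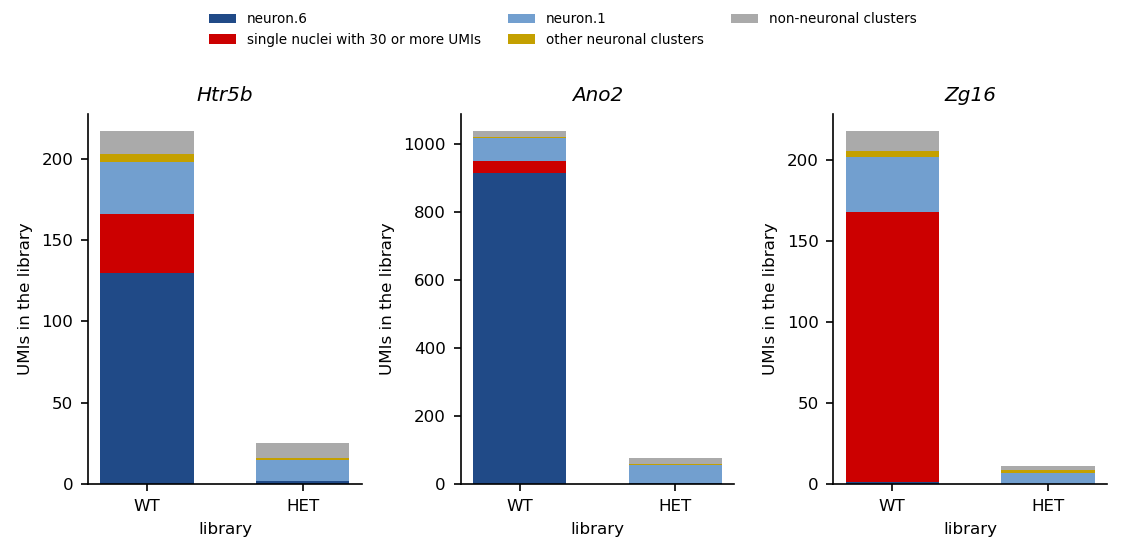
UMIs of each gene in the WT and HET libraries, split by where they lay; red is single nuclei with at least 30 UMIs of that gene, which for Ano2 is 1 nucleus of neuron.6 and for Zg16 is 2 nuclei of neuron.8 and 1 of neuron.6. The WT bar is mostly neuron.6 for Ano2 (949 of 1038 UMIs) and mostly 3 single nuclei for Zg16 (167 of 218); each panel has its own vertical scale.

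Neuron.6 had most of the listed markers of olivary neurons, but a low level of the caudal Hox genes. It held 120 WT and 5 HET nuclei, 1.30% (1.08 to 1.55) and 0.0554% (0.0180 to 0.129) of the libraries, and all 125 carried the deposited label of neurons. Of the 11 genes of the inferior olive list, 8 were at least 2-fold higher in WT neuron.6 than in the other WT nuclei, against a background of 6.13% of 20374 genes. The transcription factor Pou4f1 stood at 149 against 2.62 CPM and Foxp2 at 2259 against 40.6 CPM. The stress peptide gene Crh was at 100 against 3.42 CPM, the calcium buffer Calb1 at 268 against 16.4, and the gap junction gene Gjd2 at 19.7 against 3.66. The glutamate transporter Slc17a6 was 1.72-fold higher. Pcp4 was lower there than elsewhere, at 19.7 against 53.8 CPM. The 4 markers of inhibitory neurons summed to 31.7 CPM in WT neuron.6 against 217 CPM in the library. The 7 caudal Hox genes, which mark position in the caudal hindbrain, summed to 8.97 CPM in WT neuron.6 against 44.8 CPM in the library. Of these 7, 2 had no UMI in WT neuron.6, and all 7 had none in the 5 HET nuclei. Of the 3 astrocyte markers, the glutamate transporter gene Slc1a2 was at 600.2 CPM in WT neuron.6 against 120.4 CPM in the library, while Aqp4 and Gja1 were at 2.99 CPM each. The choroid plexus transcript Ttr, which neurons should lack, stood at 189.5 CPM against 393 CPM. Clusters had been built from the same nuclei, so these differences are no test.

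**Figure D2:**
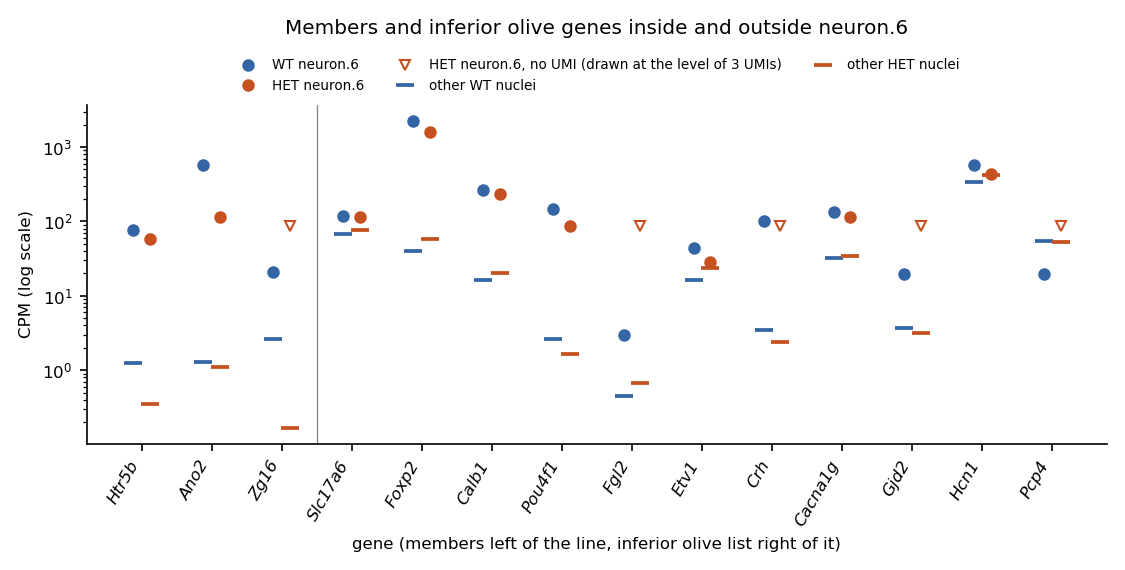
Level of the members and of the 11 inferior olive genes in neuron.6 (circles) and in all other nuclei (bars) of each library, in CPM on a log scale. In WT, Ano2 lies at 567 CPM in neuron.6 and at 1.30 CPM elsewhere, the widest gap shown for that library, and Foxp2, Calb1 and Pou4f1 show the same order.

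Ano2 marked nearly every WT nucleus of neuron.6. It was detected in 116 of 120 nuclei (96.7%, 91.7 to 99.1), with a lowest value of 0, a median of 6 and a highest of 34 UMIs, and 36 nuclei had at least 10. Its level there was 567 CPM (532 to 605), 437-fold that of the other WT nuclei. Thinned to 1000 UMIs per nucleus, 40.6% of these nuclei would keep an Ano2 UMI.

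Htr5b was at a lower level in the same nuclei. It was detected in 62 of 120 (51.7%, 42.4 to 60.9), with a median of 1 and a highest of 8 UMIs, and its level was 77.7 CPM (64.9 to 92.3). All 62 nuclei with an Htr5b UMI also had an Ano2 UMI, 54 had Ano2 alone and 4 had neither. Nuclei with Htr5b were deeper, at a median of 14612 UMIs against 10614 without it. Ano2 was at 572 CPM (525 to 623) in the nuclei with Htr5b and at 561 CPM (508 to 618) in those without, so its level did not differ beyond counting error with the detection of Htr5b.

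Zg16 was detected in 2 of the 120 nuclei (1.67%, 0.202 to 5.89). One of these held 34 UMIs and the other 1. The nucleus with 34 also held 11 Ano2 UMIs, 1 Htr5b UMI, 63 of Foxp2 and 10 of Pou4f1, and so carried the olive genes of its cluster. The other 118 nuclei had none. These counts go against the description of Zg16 as a gene of the inferior olive, and it is called here by its own name only.

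The 5 HET nuclei of neuron.6 were shallower, at 5223, 5881, 7133, 7692 and 8748 UMIs. Their Ano2 counts, in that order, were 3, 0, 1, 0 and 0, and their Htr5b counts were 1, 0, 0, 0 and 1. Zg16 had no UMI in any of them, with an interval that reached 106 CPM, above its WT level of 20.9 CPM. Foxp2 was present in all 5 nuclei with 4 to 17 UMIs, Calb1 in 4 and Pou4f1 in 3. Crh, found in 60 of 120 WT nuclei, and Gjd2, found in 25, had no UMI in the 5. Their intervals there also reached 106 CPM, above their WT neuron.6 levels of 100 and 19.7 CPM. Ano2 was detected in 2 of 5 (40.0%, 5.27 to 85.3) against 116 of 120 in WT. The 4 WT nuclei without it had 5675, 5690, 7054 and 8148 UMIs, all within the depth range of the 5 HET nuclei. Most WT nuclei in that range did hold Ano2, such as 3 UMIs at a depth of 5257 and 6 at 6869. The median depth of the WT nuclei was 12413 UMIs, and a difference in detection at matched depth was not tested.

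Summed, the HET nuclei had 4 Ano2 UMIs. The level of all WT nuclei of the cluster, most of them deeper, would give 19.7 from the same total of UMIs. The levels were 115 CPM (31.4 to 295) in HET and 567 CPM in WT, a log2 ratio of -2.30 (-4.18 to -0.94). Htr5b had 2 UMIs where the WT level would give 2.70, and its log2 ratio was -0.43 (-3.49 to 1.45). For Foxp2 the ratio was -0.48 (-0.89 to -0.10), for Calb1 -0.22 (-1.44 to 0.78), and for Scn1a -0.48 (-1.93 to 0.66). The interval of Ano2 lay below 0 and that of Htr5b did not, but these are 5 nuclei of 1 mouse, 3 of the 4 Ano2 UMIs came from 1 nucleus, and the genes were chosen on this contrast. The doublet scores of these 5 nuclei, 0.286 to 0.360, lay within the WT range of the cluster (0.150 to 0.367), with a higher median (0.358 against 0.285). Both medians were above those of the whole libraries (0.116 in HET and 0.169 in WT). After thinning to 1000 UMIs, Ano2 would be kept in 12.2% of HET and 40.6% of WT nuclei and Htr5b in 6.12% and 6.93%.

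**Figure D3:**
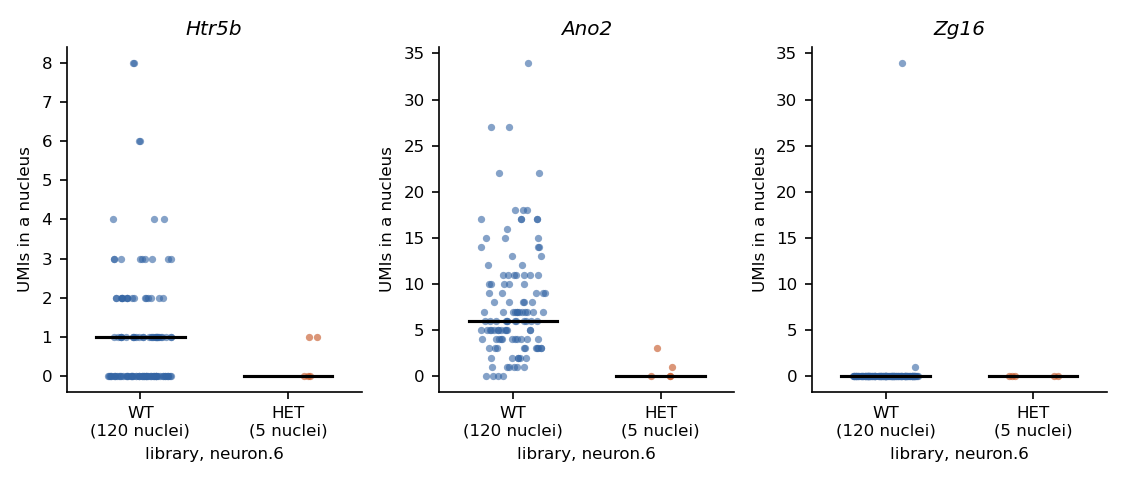
UMIs of each gene in every nucleus of neuron.6 (1 point per nucleus, spread sideways; black line, median), for the WT library (120 nuclei) and the HET library (5 nuclei). Ano2 has a median of 6 UMIs in WT and reaches 3 in HET, Htr5b reaches 8 and 1, and Zg16 lies in 2 WT nuclei.

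Outside neuron.6 the 3 genes parted. Ano2 had 89 UMIs in WT and 73 in HET, at 1.30 CPM (1.04 to 1.60) and 1.10 CPM (0.865 to 1.39), and its log2 ratio of -0.23 (-0.70 to 0.23) did not differ from 0 beyond counting error. Its highest count in a nucleus was 5 in both libraries, and 11 WT and 5 HET nuclei had at least 2. In neuron.1, the largest cluster, it was at 1.45 CPM in WT and 1.25 in HET. Oligodendrocytes, which should lack a neuronal channel, had 1.88 and 1.52 CPM, with an Ano2 UMI in 0.623% of WT and 0.504% of HET nuclei. Neuron.1 had one in 0.994% and 1.03% of its deeper nuclei (median 7752 and 8509 UMIs against 2738 and 2854). Thinned to 1000 UMIs these shares were 0.169% and 0.141% in neuron.1 and 0.219% and 0.168% in oligodendrocytes. Over the whole of neuron.1, Ano2 was therefore at the level of a cell type that should lack it, in both libraries. Within it, subcluster 0 had 39 UMIs in 23 of 1288 WT nuclei (3.54 CPM) and 23 UMIs in 16 of 1576 HET nuclei (1.66 CPM), while no oligodendrocyte nucleus had more than 1 UMI.

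Htr5b outside neuron.6 had 87 UMIs in WT and 23 in HET, a log2 ratio of -1.87 (-2.60 to -1.19). Of the 87, 36 lay in 1 nucleus of neuron.8, and the other 43 WT nuclei of that cluster had none. Without that nucleus the ratio was -1.10 (-1.88 to -0.36), from 51 and 23 UMIs. Neuron.8 led in cholinergic genes, with Chat at 158 CPM against 3.60 elsewhere and Prph at 214 against 3.45; these were picked after their values had been seen. The nucleus with 36 Htr5b UMIs had 46929 UMIs in all, against a median of 27192 in its neighbours, and it held 11 UMIs of Chat and none of Foxp2, Pou4f1 or Ano2. In neuron.1, Htr5b had 32 UMIs in 29 WT nuclei and 13 in 11 HET nuclei, at 0.663 CPM (0.453 to 0.935) and 0.320 CPM (0.170 to 0.547). Oligodendrocytes were at 0.342 CPM (0.0415 to 1.24) and 0.507 CPM (0.138 to 1.30), and these intervals overlapped those of neuron.1.

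The ependymal cluster epend.1 stood above that level for Htr5b in both libraries. It had 10 UMIs in 7 of 129 WT nuclei, or 23.5 CPM (11.3 to 43.3), and 3 UMIs in 3 of 45 HET nuclei, or 13.2 CPM (2.72 to 38.6). The shares with a UMI were 5.43% (2.21 to 10.9) and 6.67% (1.40 to 18.3), against 0.113% and 0.168% of oligodendrocytes at a similar depth (median 2343 and 2746 UMIs against 2738 and 2854). All 13 UMIs lay in subcluster 23, and the 47 WT nuclei of subcluster 32 had none. Ano2 had 1 UMI in epend.1 of WT and none in HET. The log2 ratio of Htr5b between the libraries there was -0.83 (-3.33 to 1.12).

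Zg16 was carried by single nuclei. In WT, 81 and 52 UMIs lay in 2 nuclei of neuron.8 and 34 in the 1 nucleus of neuron.6 described above, which is 167 of its 218 UMIs. The 3 highest nuclei held 72.9% of its UMIs in both libraries, a share of at least 50% that 0.0612% of the 16347 genes with 200 UMIs reached; the median gene had 0.668%. For Htr5b the 3 highest nuclei held 21.5% and for Ano2 7.89%. Zg16 itself reached 200 UMIs only through the 3 WT nuclei named above. The 2 neuron.8 nuclei had 35223 and 25071 UMIs in all, held 3 and 1 UMIs of Chat, and none of Htr5b, Ano2, Foxp2 or Pou4f1. Their doublet scores, 0.299 and 0.354, lay on either side of the median of their neighbours (0.323). The remaining 42 WT nuclei of neuron.8 had no Zg16 UMI, nor had the 9 HET nuclei.

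Without these nuclei Zg16 was at 51 UMIs in WT and 11 in HET, a log2 ratio of -2.13 (-3.22 to -1.17). In neuron.1 it had 34 UMIs in 34 WT nuclei and 7 in 7 HET nuclei, never more than 1 in a nucleus, at 0.704 CPM (0.488 to 0.984) and 0.172 CPM (0.0692 to 0.355). Oligodendrocytes had 8 and 1 UMIs, or 1.37 CPM (0.591 to 2.70) and 0.127 CPM (0.00321 to 0.706). The low Zg16 level was thus lower in HET in neuron.1 (log2 ratio -2.03, -3.45 to -0.84) and in oligodendrocytes (-3.43, -8.90 to -0.53), with no interval that reached 0. Whether these scattered UMIs come from the nuclei themselves was not tested.

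**Figure D4:**
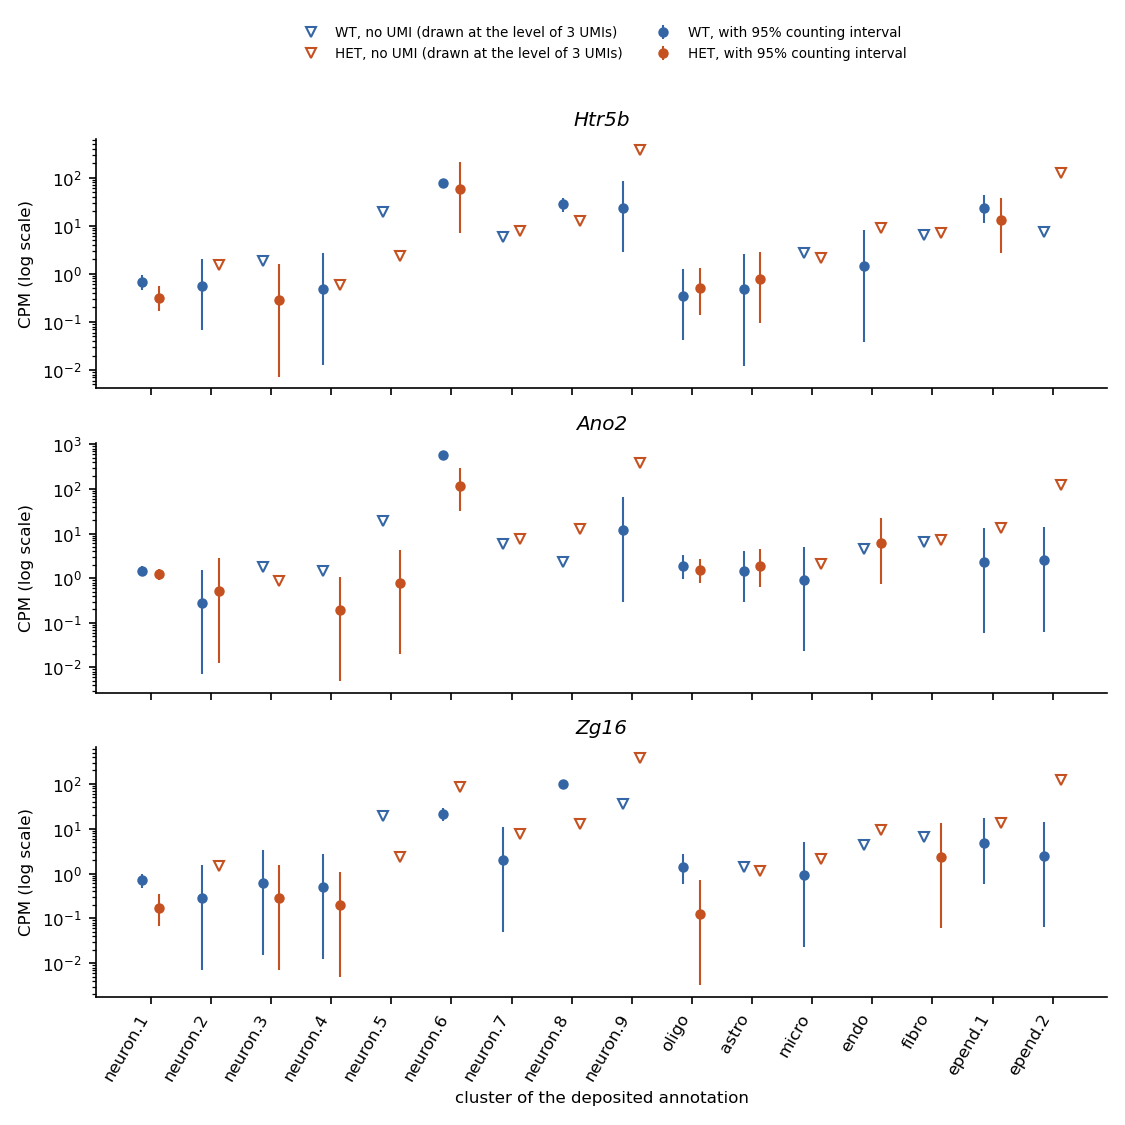
Level of each gene in the 16 deposited clusters of both libraries, in CPM on a log scale with 95% counting intervals; open triangles mark clusters with no UMI and stand at the level that 3 UMIs would give. Ano2 peaks in neuron.6 alone, Htr5b in neuron.6 with lower values in neuron.8, neuron.9 and epend.1, and Zg16 in neuron.8 and neuron.6, where 3 nuclei carry it.

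Ranked by WT level, Ano2 ran from neuron.6 to neuron.9 at 11.8 CPM (0.299 to 65.7, 1 UMI) with no other cluster above 3 CPM. Htr5b ran from neuron.6 (77.7) to neuron.8 (27.7, 1 nucleus), neuron.9 (23.6, 2.86 to 85.2, 2 UMIs) and epend.1 (23.5), and the last 3 did not differ beyond their intervals. Zg16 ran from neuron.8 (102) to neuron.6 (20.9) and epend.1 (4.71, 2 UMIs). In HET only neuron.6 and epend.1 exceeded 10 CPM for Htr5b, only neuron.6 did so for Ano2, and no cluster did so for Zg16. A small cluster with no UMI could still have such a level. In the 9 HET nuclei of neuron.8, the interval for no UMI reached 15.4 CPM.

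Co-detection followed the same lines. In WT, 62 of 120 nuclei of neuron.6 had UMIs of at least 2 of the genes, against 2 of 9139 nuclei elsewhere, both with Htr5b and Zg16. In HET the counts were 1 of 5 and 0 of 9017. No nucleus outside neuron.6 held both Htr5b and Ano2 in either library. There 46 WT nuclei had Htr5b and 69 had Ano2, so few shared nuclei could occur among 9139.

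The genes most like each member in level over 31 sums of a cluster in a library were ranked by Pearson's r of log2(CPM + 1). For Ano2 they were the long non-coding genes D130009I18Rik (r = 0.89), Gm43101 (0.87) and D130079A08Rik (0.84), the transcription factor Pou4f1 (0.79) and 4930417O13Rik (0.78). D130009I18Rik had 3891 of its 5318 WT UMIs in neuron.6 and was detected in all 120 WT and all 5 HET nuclei there. Htr5b shared 4 of its 5 with Ano2, namely Pou4f1 (0.74), D130009I18Rik (0.72), Gm43101 (0.70) and D130079A08Rik (0.69), behind C330018A13Rik (0.79), which had only 2 and 1 UMIs in neuron.6. The sums share libraries and differ in depth, and in the small ones 1 UMI makes a high level.

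For Zg16 the 5 were Olfr1369-ps1 (0.90), Rubie (0.83), Prdm14 (0.79), Fer1l4 (0.75) and Gsta2 (0.74), none of them shared with the others. In the 3 nuclei that held 167 Zg16 UMIs, Rubie had 7 of its 51 UMIs and the other 4 genes had 0. For these 4 genes the likeness to Zg16 therefore lay in the sums and not in those nuclei. Between members, r was 0.69 for Htr5b and Ano2, 0.52 for Htr5b and Zg16, and 0.26 for Ano2 and Zg16.

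The other genes of the olive kept closer to equal totals. Over all nuclei, 2 of the 11 olive genes were at least 2-fold lower in HET (4.94% of all genes tested), Pou4f1 at 429 against 114 UMIs (log2 ratio -1.82, -2.14 to -1.52) and Crh at 403 against 159 (-1.25, -1.53 to -0.99). None was 2-fold higher, and the list median was -0.02, while that of all 21997 genes tested was -0.09. Outside neuron.6, where 4.93% of 21969 genes were at least 2-fold lower in HET, none of the 11 was. Foxp2 was higher there in HET, at 58.9 against 40.6 CPM.

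Of the 11 genes for rhythm channels, none was 2-fold lower (4.94% of all genes tested) or higher over all nuclei. The log2 ratios ran from -0.36 (Gjd2) to 0.33 (Cacna1i), with a median of 0.02. In WT neuron.6, 3 of the 11 stood at least 2-fold higher than elsewhere (6.13% of all genes tested). They were Gjd2, the T-type calcium channel Cacna1g at 135 against 31.8 CPM and the small-conductance potassium channel Kcnn3 at 96.3 against 23.1. The large-conductance channel Kcnma1 was low there at 47.2 against 541 CPM, and Kcnn1 had no UMI. Hcn2 (30.5 against 96.4 CPM) and the T-type channel Cacna1h (2.39 against 10.9 CPM) were also lower there.

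Of the 9 anoctamins measured, Ano2, which was chosen on this contrast, was the 1 at least 2-fold lower in HET (4.94% of all genes tested), and the other 8 ranged from -0.43 (Ano7, 30 and 21 UMIs) to 0.23 (Ano4). It was also the 1 anoctamin at least 2-fold higher in WT neuron.6 than elsewhere (6.13% of all genes tested). Ano1, the other chloride channel of the family, had 1 UMI there, and Ano3 stood at 257 against 155 CPM.

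Among the 14 serotonin receptor genes, 13 had at least 20 UMIs. Htr5b, which was chosen on this contrast, and Htr3a were at least 2-fold lower in HET (4.94% of all genes tested), and none was 2-fold higher. Htr3a, an ionotropic subunit, had 35 and 14 UMIs (-1.23, -2.24 to -0.30). The largest log2 ratio was 0.50 for Htr2b. Htr5a, the paralog of Htr5b, had 148 and 189 UMIs (0.44) and a single UMI in WT neuron.6. In WT neuron.6, 3 of the 13 stood at least 2-fold higher than elsewhere (6.13% of all genes tested). They were Htr5b, itself a chosen member, Htr3a with 2 UMIs there, and Htr2a at 64.6 against 11.1 CPM. Htr2a had 2 UMIs in the 5 HET nuclei.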

How the data were processed

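Nuclei of 1 WT and 1 HET brainstem were profiled with the droplet-based Chromium 3′ platform. The authors made the deposited UMI counts with Cell Ranger (version not given in the sources used here) on mm10, filtered them in Seurat (4.1 in the submitters' processing notes) and left them unnormalized; the doublet score, clusters and labels were also used as deposited, and the authors' caller for the score is not named. Free RNA caught in a droplet can add UMIs to nuclei that do not express a gene. UMIs were summed per library, or per cluster and library, and divided by all UMIs of those nuclei (CPM). Intervals were exact Poisson (levels), exact conditional binomial (ratios) and Clopper-Pearson (shares), at 95%; a library at 0 was set to 3 UMIs. Likeness used genes with at least 50 UMIs and sums of at least 5 nuclei. The named genes were the members, the 5 genes most like each, and from each list the largest, the smallest and any past 2-fold; others were chosen after their values were seen, and 1 gene of the olive list is not reported here. The members and lists were chosen with earlier results of these data known. The ratio and likeness functions were tested on simulated data. Tools were scipy 1.17.1, numpy 2.4.6, matplotlib 3.10.9 and pandas 2.3.3 in Python 3.11.15.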

Additional observations from a re-analysis of the deposited data

How the results depend on the processing

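No paired analysis was possible because each genotype has 1 library, and no test between genotypes exists to be repeated. No log2 ratio of a member changed sign under any alternative run, and 36 of 61 alternative values stayed within their interval or within 1.5 times the count. With every cluster weighted equally in both libraries, the log2 ratio over all nuclei was -1.40 for Htr5b and -2.20 for Ano2, and as a mean over nuclei of CPM it was -1.94 and -2.54. Without neuron.6, neuron.8, neuron.9 and epend.2, which were mostly WT, it was -1.07 for Htr5b, -0.23 for Ano2 and -2.13 for Zg16. Without the 5 nuclei with at least 30 UMIs of a member, it was -2.13 for Zg16 over all nuclei, and outside neuron.6 it was -1.10 for Htr5b and -2.13 for Zg16. These 2 sets of nuclei were chosen after seeing the data. Leaving out the 5% highest doublet scores gave -1.06 for Htr5b outside neuron.6. Nuclei with UMIs of all 3 members numbered 2 in WT neuron.6 and 0 in WT elsewhere and in HET. Those with at least 3 UMIs of the members together numbered 108 in WT neuron.6, 9 in WT elsewhere and 2 in HET outside neuron.6. Of the genes with at least 200 UMIs, 441 were at least 2-fold lower in HET (2.70%, against 1087 of those with at least 20). By Spearman correlation, 1, 1 and 0 of the 5 genes named as most like Htr5b, Ano2 and Zg16 were found again. The values of HET neuron.6 rest on 5 nuclei.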
